A study of Mus musculus with 6 samples.

Results

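The 34 genes described here encode the mitochondrial route by which liver burns fatty acids and the enzymes that feed or draw on it: fatty acid activation, the carnitine shuttle, the beta-oxidation spiral, electron transfer and ketone body enzymes. They were taken as a list of gene symbols, and each matched 1 of the 54532 gene identifiers of the deposited tables through GENCODE vM21. They were measured by RNA sequencing of mouse liver in 6 libraries. In 3 libraries the genotype was given as WT, and in the other 3 as a liver-specific knockout of Arid2 (LKO), which encodes a subunit of the PBAF chromatin remodelling complex. All 6 came from animals labelled as having no treatment. Not given in the sources used here: the allele, the promoter that drives the deletion, the strain, the age and the feeding state at collection. Nothing in the labels ties each library to its own animal, and the p-values therefore cover only the spread among these 6 samples, which may be technical.

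Long-chain fatty acids are joined to coenzyme A by acyl-CoA synthetases at the outer mitochondrial membrane, exchanged onto carnitine, carried inward and returned to coenzyme A. Each turn of the spiral then removes a 2-carbon unit by dehydrogenation, hydration, a further dehydrogenation and thiolysis, with electrons passed to the respiratory chain. In liver the resulting acetyl-CoA can be turned into ketone bodies, which other organs burn during fasting. Many genes of the route are known targets of the nuclear receptor PPAR-alpha. The series title links Arid2 to hepatic steatosis, so the question asked here was whether transcripts of this route differed between the genotypes.

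Values were FPKM, fragments scaled to exon length and a total for each library, so levels can be compared between genes per length. The steps in the values corresponded to between 13947784 and 18159282 reads per library. The totals implied by those steps were not the reads themselves. They were 1.93e+07 in WT replicate 1 against 16889747 reads, and 1.27e+07 in LKO replicate 1 against 13947784 reads. The part of this scaling in the differences was not tested directly. Under other scalings, the median log2 difference of the listed genes that were tested was 0.30 or 0.29, against 0.36 as deposited. These were scaling to the sum outside the mitochondrial genome and quantile normalization. Arid2 itself, the gene named as deleted, had overlapping groups. It read 2.65, 1.74 and 1.79 FPKM across the WT libraries and 2.55, 1.33 and 2.04 FPKM across those labelled LKO (log2 difference -0.05 ± 0.24 SE, limma adjusted p = 0.974). Its sign turned without WT replicate 1 (0.09) and without LKO replicate 2 (0.12). A check of the labels by this gene was planned, and its values did not show the deletion. Each value covers a whole gene and shows no single exon. The overlapping values of this gene therefore neither bear out nor refute the genotype labels. Directions given here compare the libraries by their labels. All 8 hepatocyte markers were detected in every library. They did not move together: Alb, for serum albumin, was lowest in WT replicates 1 and 3 and LKO replicate 1 (24010, 24290 and 30700 FPKM) and reached 44280 FPKM in LKO replicate 2. Cps1, of the urea cycle, was at 146.5, 237.7 and 156.9 FPKM in WT and at 109.9, 351.5 and 619.5 FPKM in LKO, while Apoa1, an apolipoprotein, ran from 18940 FPKM in WT replicate 1 down to 4228 FPKM in LKO replicate 3. Both libraries numbered 1 stood apart from the other 4, with 2003 and 2368 genes covered by 1 to 5 reads against 3913 to 4263. The tissue was analysed in bulk, so fewer cells of a type and less RNA per cell cannot be told apart.

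Of the 34 genes, 33 had a mean of at least 0.5 FPKM over the 6 libraries and entered the test, each with between 50 and 22583 reads in every library. None of the 33 passed the threshold in either direction (limma-trend on log2(FPKM + 1), Benjamini-Hochberg adjusted p under 0.05 over 11672 genes), and the lowest adjusted p of a member was 0.389. Of all 11672 genes tested, 0.0428% were called, 0.00857% higher and 0.0343% lower in LKO. Voom on the recovered reads called 0 members as well. At an unadjusted p under 0.05 there were 2 of 33 members, Slc22a5 and Acsl4, both higher in LKO. Of all genes, 4.28% were higher at that level and 9.22% differed in either direction. The fitted log2 difference was above 0 for 27 of 33 members and for 54.1% of all genes. Its median was 0.36 over the members and 0.04 over all genes. Every LKO library was above every WT library for 4 members (Acsl1, Acsl4, Acadl and Slc22a5) and below for 0, or 12.1% of the 33. Groups did not overlap for 15.4% of all genes, 8.0% above and 7.42% below. The members' share, which rests on 4 genes, was above that of all genes upward and below it in both directions together. For 31 of 33 members the 95% interval of the difference covered 0. The medians of its lower and upper bounds were -0.72 and 1.31, so for a typical member the interval held 2-fold upward as well as no difference.

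**Figure D1:**
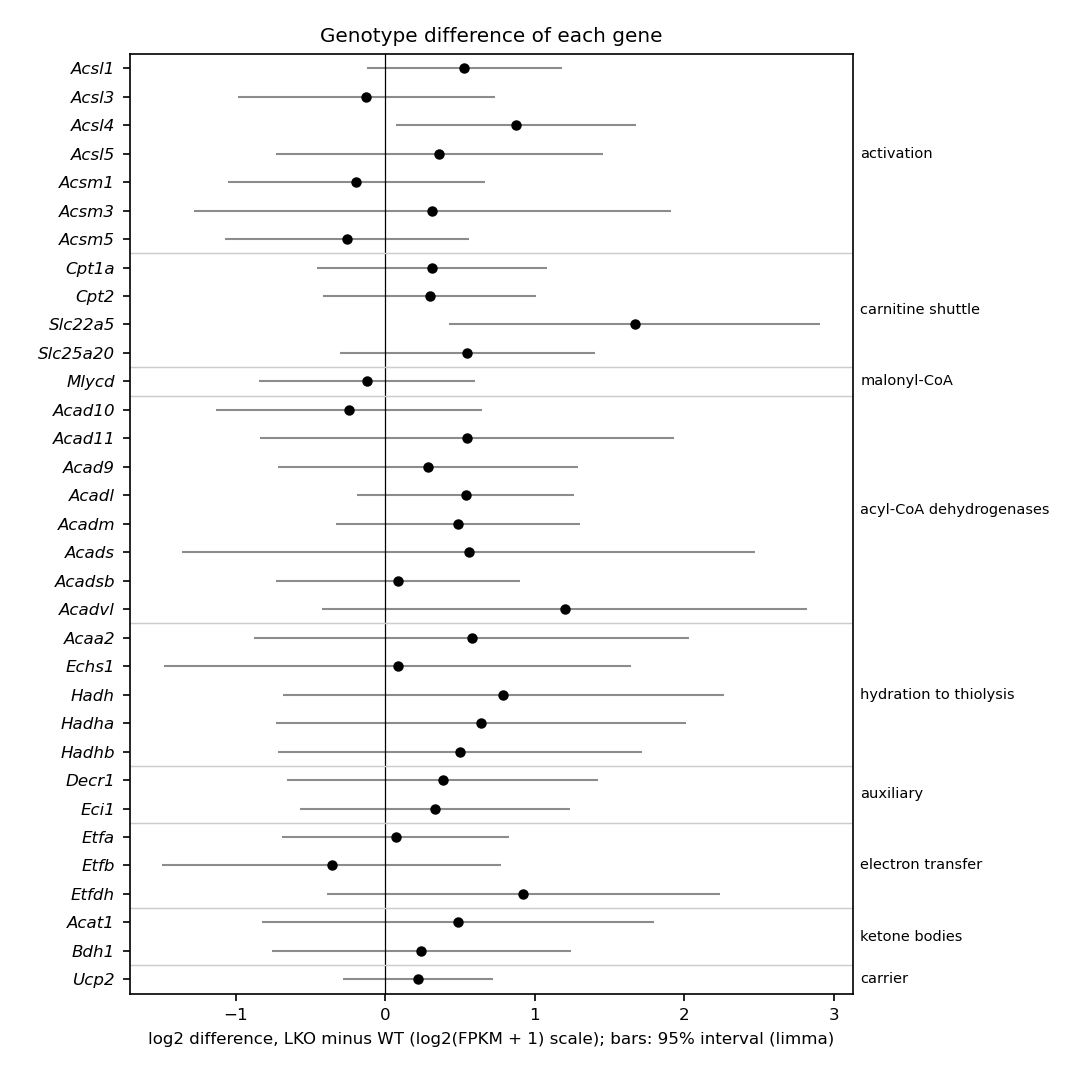
Log2 difference between LKO and WT on the log2(FPKM + 1) scale for the 33 tested genes, grouped by role. Points are limma estimates from 3 libraries per group and bars are 95% intervals. Only the bars of Acsl4 and Slc22a5 lie wholly above 0, and neither gene passed after adjustment.

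The median over the members depended on single libraries. It was 0.07 without WT replicate 1, with 18 of 33 members above 0 (52.1% of all genes), and 0.67 without LKO replicate 1, with 32 above 0. Without WT replicate 2 it was 0.63, with 11 members free of overlap upward (12.8% of all genes), and without LKO replicate 3 it was 0.23. None of the members was called in any of these fits. With array quality weights, which give each library its own weight, 2 members were called higher, Acsl4 and Slc22a5, while 10.2% of all genes were called and 5.32% were called higher. That fit leaned on WT replicate 3 (weight 5.44) and LKO replicate 2 (2.42), the library in which Acsl4 was highest. The other libraries had weights of 0.299 to 1.10.

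The members varied widely among libraries of one genotype. The highest WT library was more than 2 times the lowest for 18 of 33 members, and the same held among LKO libraries for 21. The median ratio of highest to lowest was 2.08 in WT and 2.46 in LKO over the members, against 1.64 and 2.08 over all tested genes. WT replicate 1 was the lowest WT library for 25 of 33 members (75.8%, against 41.9% of all genes), and WT replicate 2 the highest for 28 (84.8%, against 37.4%). Among the libraries labelled LKO, replicate 1 was the lowest for 29 members (87.9%, against 43.5% of all genes) and replicate 3 the highest for 21 (63.6%, against 38.6%). The 4 members for which LKO replicate 1 was not the lowest were Slc22a5, Etfb, Ucp2 and Eci1.

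On the log2(FPKM + 1) scale, the median deviation of the members from the WT mean was -0.47, 0.43 and 0.07 across the WT libraries and -0.20, 0.57 and 0.66 across the LKO libraries, in replicate order, so WT replicate 2 lay above LKO replicate 1 and the groups overlapped. The summed level of all 34 genes was also lowest in replicate 1 of each group. It was 1094, 2370 and 1847 FPKM in WT and 1581, 2635 and 2580 FPKM in LKO. Acaa2 alone gave 184.6 FPKM of the sum in WT replicate 1 and 952.9 FPKM in LKO replicate 2. The sum put LKO replicate 2 above LKO replicate 3, unlike the medians. The share of reads on the mitochondrial genome ran nearly opposite to the median deviations. It was 20.7%, 10.2% and 18.5% across WT and 27.6%, 7.72% and 4.76% across LKO. The 3 libraries in which the members were lowest had the 3 largest shares, and its part in the members' spread was not tested. With each library scaled to its sum outside the mitochondrial genome, the median of the members was 0.30.

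**Figure D2:**
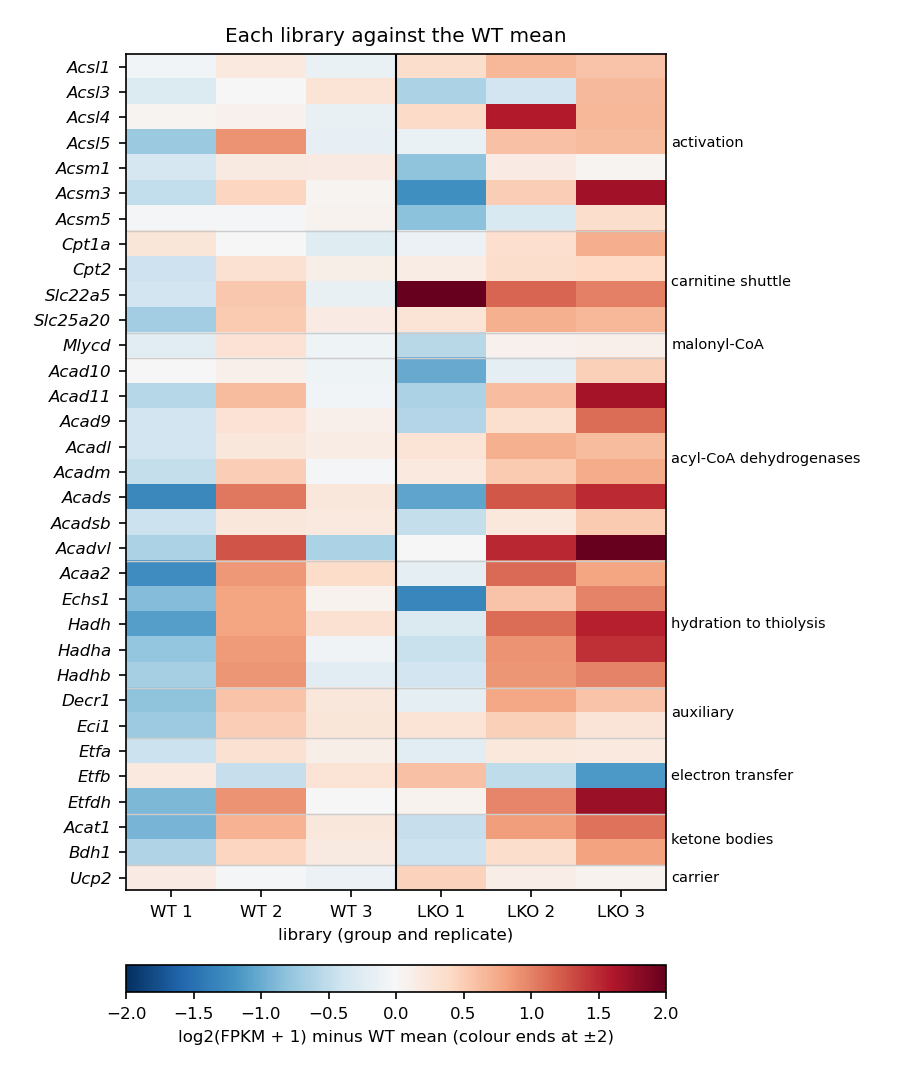
Difference of each library from the WT mean in log2(FPKM + 1) for the 33 tested genes, with WT libraries left of the line and LKO libraries right of it. Most genes are blue in the first WT and the first LKO column. Several lie above the WT mean in LKO replicate 1, among them Acadl, Acsl1 and Acsl4. Slc22a5 and Ucp2 have their highest value in that library, and Etfb runs the other way.

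Leaving out both libraries numbered 1 gave no call among the members. The median was then 0.35, with 27 of 33 members above 0 (53.6% of all genes). Both LKO libraries lay above both WT libraries for 19 of 33 members and below for 2, while over all genes this held for 25.2% and 21.6%. Without LKO replicate 1 alone, groups did not overlap upward for 18 members (21.1% of all genes).

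Among the fatty acid activation genes, Acsl1 is the main long-chain acyl-CoA synthetase of liver (chr8:46471037-46536051, plus strand, mm10). Acsl1 was at 68.1, 81.7 and 64.5 FPKM in WT and at 90.7, 113.5 and 106.0 FPKM in LKO, so all 3 LKO libraries lay above all 3 WT libraries. Its means were 71.4 ± 9.05 and 103.4 ± 11.7 FPKM (SD, n = 3; log2 difference 0.53 ± 0.28 SE, 95% interval -0.12 to 1.18, limma adjusted p = 0.634). An exact permutation test over the 20 splits gave p = 0.1, the smallest that 3 against 3 allows, for each of the 4 members whose groups did not overlap. Libraries of one genotype lay close together for Acsl1, with a ratio of highest to lowest of 1.27 in WT and 1.25 in LKO.

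Acsl4, which prefers arachidonic acid and other polyunsaturated chains, lay on the X chromosome (chrX:142317993-142390535, minus strand). It was at 5.83, 5.96 and 4.93 FPKM in WT and at 7.54, 18.6 and 9.38 FPKM in LKO. The LKO values all exceeded WT, and the mean of 11.9 ± 5.94 FPKM against 5.58 ± 0.565 rested in part on LKO replicate 2. The log2 difference was 0.88 ± 0.34 (SE; interval 0.07 to 1.68, limma unadjusted p = 0.0369, adjusted p = 0.494) and 0.52 without LKO replicate 2. The ratio of Acsl1 to Acsl4 was between 11.3 and 13.7 in 5 libraries and 6.10 in LKO replicate 2.

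The other activation genes showed no common direction. Acsl5, another long-chain synthetase, was at 40.0 ± 24.2 FPKM in WT against 47.4 ± 13.2 FPKM in LKO, and Acsl3, which acts at the endoplasmic reticulum and lipid droplets, at 3.50 ± 0.844 and 3.41 ± 2.24. The medium-chain synthetase genes Acsm1, Acsm3 and Acsm5 lie within one stretch of chromosome 7 (119519463 to 119787513). Acsm1 was at 118.4 ± 22.9 FPKM in WT against 106.5 ± 34.7 FPKM in LKO, and Acsm5 at 36.3 ± 1.53 and 32.1 ± 13.6. Acsm3 ranged from 0.797 FPKM in LKO replicate 1 to 12.6 in LKO replicate 3, a ratio of 15.7, against 2.01 to 4.69 in WT. As paralogs the 3 genes may share reads, and 39.8% of the exonic bases of Acsm3 overlap Eri2 on the other strand, which leaves their levels uncertain. The median of the 7 activation genes was 0.32 and turned to -0.32 without LKO replicate 3.

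**Figure D3:**
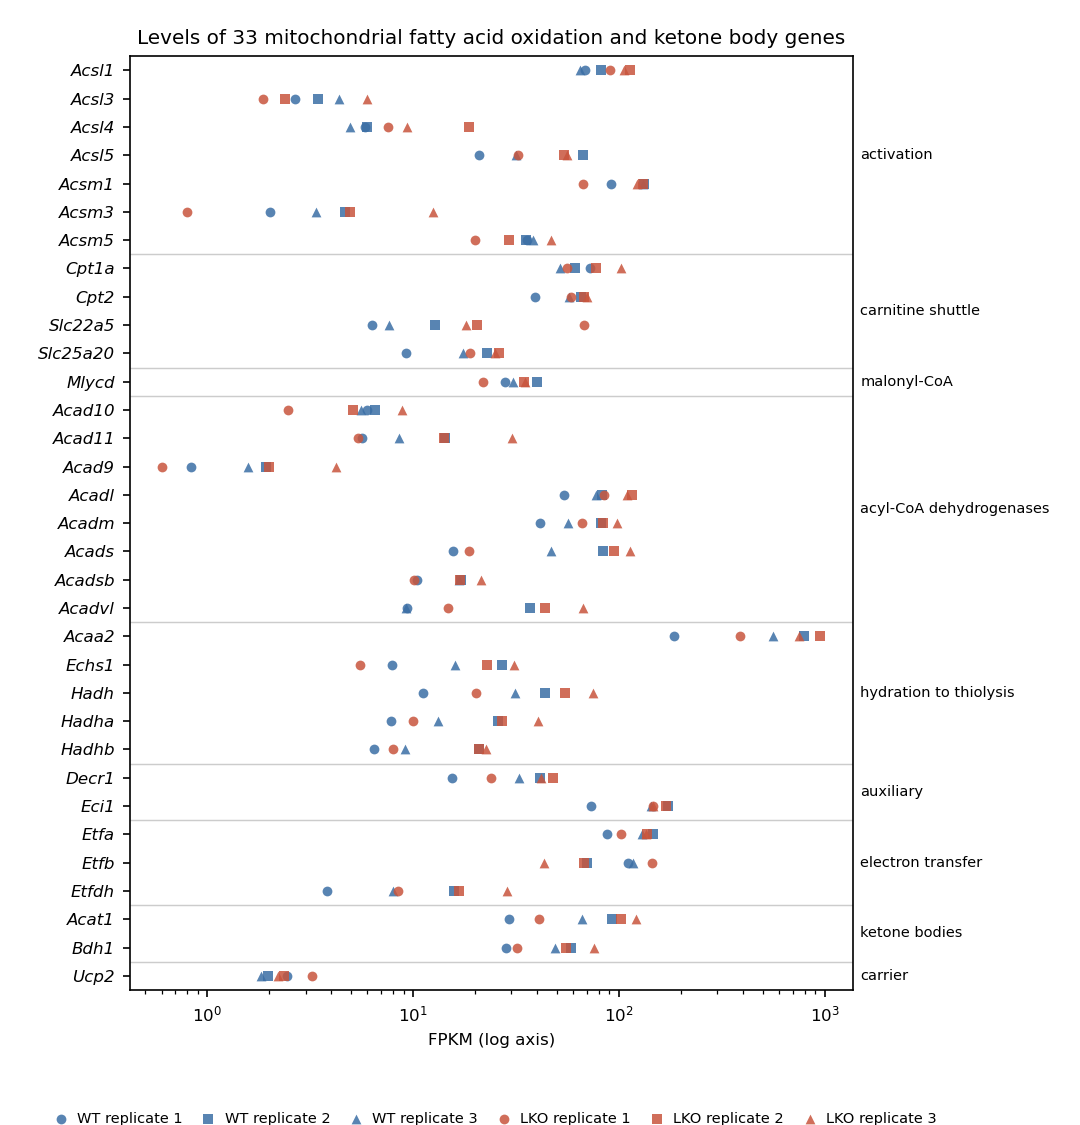
FPKM of each tested gene in each of the 6 libraries on a log axis, grouped by role, with WT in blue, LKO in red and the marker giving the replicate number. Levels span from below 1 FPKM for Acad9 and Acsm3 to 952.9 FPKM for Acaa2, and the WT and LKO ranges overlap for 29 of the 33 genes.

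In the carnitine shuttle the widest difference was in Slc22a5, which encodes the plasma membrane carnitine transporter OCTN2 (chr11:53864542-53891660, minus strand). It was at 6.30, 12.8 and 7.63 FPKM in WT, from 373, 694 and 366 reads. In LKO it was at 67.8, 20.4 and 18.1 FPKM, from 2646, 978 and 1058 reads. Every LKO library lay above every WT library, and LKO replicate 1 stood far above the other 5. The means were 8.93 ± 3.46 and 35.4 ± 28.1 FPKM (log2 difference 1.67 ± 0.53 SE, 95% interval 0.43 to 2.91, limma unadjusted p = 0.0150, adjusted p = 0.389). Without LKO replicate 1 the log2 difference was 1.08, and without both libraries numbered 1 it was 0.89.

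The 4 stretches below are shown because they lie before the start of the 2 members with the lowest p, before the start of the medium-chain dehydrogenase gene, and between a pair of genes that start head to head. They come from RefSeq on GRCm38.p6, which held an entry for 29 of the 34 members. Capitals mark matches on either strand to AGGTCA (the hexamer bound by many nuclear receptors), GGGCGG (a GC box), the NRF1-type motif (GCGCA and GCGC with any 1 base between), CCAAT or TATAAA. Neighbouring matches may overlap. Slc22a5 is chr11:53891704-53891953 (minus strand), Acsl4 is chrX:142390536-142390785 (minus strand) and Acadm is chr3:153944644-153944893 (minus strand), each the 250 bases before the start. Hadha-Hadhb is chr5:30155163-30155247 (plus strand), the 85 bases between the outermost annotated exons of Hadha and Hadhb.
Slc22a5: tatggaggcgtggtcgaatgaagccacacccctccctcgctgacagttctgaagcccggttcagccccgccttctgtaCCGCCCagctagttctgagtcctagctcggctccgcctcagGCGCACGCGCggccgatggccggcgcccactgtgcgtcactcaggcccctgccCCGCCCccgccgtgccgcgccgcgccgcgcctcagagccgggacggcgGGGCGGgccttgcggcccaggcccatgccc
Acsl4: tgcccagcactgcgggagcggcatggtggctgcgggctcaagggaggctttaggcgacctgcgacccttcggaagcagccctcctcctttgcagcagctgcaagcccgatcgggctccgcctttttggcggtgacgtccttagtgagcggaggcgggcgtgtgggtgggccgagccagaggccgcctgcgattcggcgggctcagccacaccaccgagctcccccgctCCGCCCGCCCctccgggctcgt
Acadm: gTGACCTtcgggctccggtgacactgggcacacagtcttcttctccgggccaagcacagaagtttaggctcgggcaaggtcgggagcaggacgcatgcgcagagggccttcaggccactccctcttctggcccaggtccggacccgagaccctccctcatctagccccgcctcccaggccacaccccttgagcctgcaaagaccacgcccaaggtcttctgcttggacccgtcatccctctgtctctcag
Hadha-Hadhb: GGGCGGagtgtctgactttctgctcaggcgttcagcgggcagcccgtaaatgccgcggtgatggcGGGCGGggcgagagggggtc
The first 2 hold GC boxes only, apart from 1 NRF1-type match in Slc22a5, and are 73.6% and 70.8% G or C. Acadm holds 1 AGGTCA match near its far end, and the bases between Hadha and Hadhb hold 2 GC boxes. Over all 31 member windows of 250 bases, GGGCGG was present in 54.8% (32.7% of 32851 windows of all genes) and the NRF1-type motif in 12.9%, in Acad10, Etfb, Etfdh and Slc22a5 (3.74% of all). CCAAT was present in 41.9% (33.8% of all) and AGGTCA in 16.1% (14.02% of all), while TATAAA was in 0 member windows and in 12.4% of all. The direct repeat of AGGTCA with any 1 base between copies, which contains the single hexamer, was in 0 member windows and in 0.0335% of all. These are matches of letters in a short window and not sites of binding.

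The remaining carnitine shuttle genes differed less. Cpt1a, the liver form of the rate-limiting carnitine palmitoyltransferase, was at 72.4, 61.1 and 51.5 FPKM in WT and at 56.1, 77.2 and 102.3 FPKM in LKO. LKO replicate 1 lay inside the WT range, and the log2 difference was 0.32 ± 0.33 (SE; interval -0.45 to 1.08, limma adjusted p = 0.844). Cpt2, which returns acyl groups to coenzyme A on the inner side, was at 39.2, 65.4 and 57.1 FPKM in WT and at 58.3, 67.7 and 69.7 FPKM in LKO. Its groups overlapped through LKO replicate 1 (log2 difference 0.30 ± 0.30 SE, limma adjusted p = 0.838). Slc25a20, the acylcarnitine carrier of the inner membrane, was at 16.5 ± 6.84 FPKM in WT against 23.4 ± 3.84 FPKM in LKO. Mlycd, the decarboxylase that removes the CPT1 inhibitor malonyl-CoA, was at 32.9 ± 6.41 and 30.5 ± 7.55 FPKM.

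Cpt1b, the muscle form, was not tested. It had 0, 3 and 0 reads in WT and 6, 2 and 0 in LKO, and at 0 reads the level could still be up to 0.0461 to 0.0570 FPKM (3 reads, counting error only). Of its exonic bases, 81.4% are shared with the overlapping gene model Gm44502. Of 9 muscle markers, 6 were at 0 in every library (Ckm, Acta1, Myh1, Myh4, Myh6 and Mb), and all 9 summed to between 0.116 and 0.656 FPKM.

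Of the 8 acyl-CoA dehydrogenase genes, which carry out the first step of the spiral for chains of different length, 7 were fitted above 0 and none was called. Acadl, for long chains (chr1:66830839-66863277, minus strand), was at 54.0, 82.8 and 77.8 FPKM in WT and at 85.03, 116.3 and 109.3 FPKM in LKO. The groups did not overlap, although LKO replicate 1 exceeded WT replicate 2 by little (log2 difference 0.54 ± 0.31 SE, interval -0.19 to 1.26, limma adjusted p = 0.669). Acadm, for medium chains (chr3:153922357-153944632, minus strand), was at 41.5, 82.3 and 56.9 FPKM in WT and at 66.4, 83.9 and 98.02 FPKM in LKO. WT replicate 2 lay within the LKO range (log2 difference 0.49 ± 0.35 SE, limma adjusted p = 0.755).

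Acads and Acadvl, for short and very long chains, had some of the widest spreads within a group. Acads was at 15.6, 84.0 and 46.8 FPKM in WT and at 18.7, 95.2 and 113.3 FPKM in LKO, so the library numbered 1 was lowest in both groups (log2 difference 0.56 ± 0.82 SE, limma adjusted p = 0.901). Acadvl was at 9.29, 36.9 and 9.27 FPKM in WT and at 14.8, 44.0 and 67.2 FPKM in LKO. Its means were 18.5 ± 15.95 and 42.0 ± 26.3 FPKM, with overlap through WT replicate 2 (log2 difference 1.2 ± 0.69 SE, limma adjusted p = 0.669), and 42.8% of its exonic bases overlap Dvl2 on the other strand. Acadsb, for short branched chains, was at 14.8 ± 3.71 and 16.1 ± 5.65 FPKM. Acad11, which acts on longer chains, was at 9.50 ± 4.43 and 16.6 ± 12.6 FPKM, Acad10 at 6.02 ± 0.472 and 5.47 ± 3.17, and Acad9, also an assembly factor of complex I, at 1.44 ± 0.554 and 2.27 ± 1.82. For Acad9, Acad10 and Acad11, LKO replicates 1 and 3 were the lowest and the highest of all 6 libraries.

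The hydration, second dehydrogenation and thiolysis steps had 5 genes, all fitted above 0 with a median of 0.58 and none called. The median was 0.17 without WT replicate 1, where Acaa2 and Echs1 were fitted below 0, and 1.013 without WT replicate 2. Hadha and Hadhb encode the alpha and beta subunits of the mitochondrial trifunctional protein and start head to head on opposite strands of chromosome 5, with 85 bases between their outermost annotated exons. Hadha (chr5:30118304-30155162, minus strand) was at 7.77, 25.9 and 13.3 FPKM in WT and at 10.03, 27.0 and 40.4 FPKM in LKO. Hadhb (chr5:30155248-30184593, plus strand) was at 6.46, 20.8 and 9.10 FPKM in WT and at 8.01, 20.8 and 22.6 FPKM in LKO. The pair ordered the 6 libraries the same way, and the ratio of Hadha to Hadhb stayed between 1.203 and 1.46 in 5 libraries and was 1.79 in LKO replicate 3. Their log2 differences were 0.64 ± 0.59 and 0.50 ± 0.52 (SE; limma adjusted p = 0.813 and 0.843).

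Acaa2, the medium-chain thiolase (chromosome 18), had the highest level of the 34 genes, at 514.7 ± 308.4 FPKM in WT and 697.8 ± 287.2 in LKO. It ran from 184.6 FPKM in WT replicate 1 to 952.9 in LKO replicate 2, and its log2 difference of 0.58 ± 0.62 (SE) turned to -0.04 without WT replicate 1. Hadh, the short-chain hydroxyacyl-CoA dehydrogenase, was at 28.6 ± 16.4 and 50.1 ± 27.8 FPKM (log2 difference 0.79 ± 0.63 SE, limma adjusted p = 0.777). Echs1, the short-chain enoyl-CoA hydratase, was at 16.9 ± 9.61 and 19.9 ± 13.1 FPKM. Decr1 and Eci1, which prepare unsaturated chains for the spiral, were at 29.9 ± 13.3 and 37.9 ± 12.5 FPKM and at 129.7 ± 51.2 and 154.1 ± 13.3 FPKM in WT and LKO. Without WT replicate 1 the log2 differences of Decr1 and Eci1 were -0.02 and -0.03. With LKO replicate 1 left out as well, the median over these genes was 0.14.

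Electron transfer from the dehydrogenases showed the 2 opposite patterns side by side. Etfdh, which passes the electrons to ubiquinone, was at 3.83, 15.7 and 7.96 FPKM in WT and at 8.42, 16.7 and 28.7 FPKM in LKO (log2 difference 0.93 ± 0.56 SE, limma adjusted p = 0.695). WT replicate 2 lay between LKO replicates 1 and 2. Etfb, a subunit of the electron transfer flavoprotein, was at 110.5, 69.8 and 117.0 FPKM in WT and at 145.7, 67.5 and 43.2 FPKM in LKO. It was highest in the 3 libraries with the largest mitochondrial genome share and lowest in LKO replicate 3, where that share was smallest. The ratio of its partner Etfa to Etfb ran from 0.704 in LKO replicate 1 to 3.15 in LKO replicate 3. Etfa itself was at 120.9 ± 29.8 and 125.3 ± 19.7 FPKM, and 53.0% of the exonic bases of Etfb are shared with the gene model Gm45233 on the same strand.

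The ketone body enzymes among the members followed the common library pattern. Acat1, the mitochondrial acetoacetyl-CoA thiolase, was at 29.4, 92.5 and 66.3 FPKM in WT and at 41.0, 102.1 and 121.0 FPKM in LKO (log2 difference 0.49 ± 0.56 SE, limma adjusted p = 0.863). Bdh1, which interconverts acetoacetate and beta-hydroxybutyrate, was at 28.2, 58.6 and 48.9 FPKM in WT and at 31.9, 55.5 and 76.0 FPKM in LKO (log2 difference 0.24 ± 0.43 SE, limma adjusted p = 0.921). In both genes the library numbered 1 was lowest in its group, and the groups overlapped. The carrier gene Ucp2, which is low in hepatocytes, averaged 2.08 ± 0.312 FPKM in WT against 2.60 ± 0.553 FPKM in LKO, with its highest value in LKO replicate 1.

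None of the other genes of the pathway in the lists below was called either. Of 6 tested ketone body genes outside the members 5 were fitted above 0, with a median of 0.43 that was 0.22 without WT replicate 1. Bdh2, a cytosolic dehydrogenase, was the 1 gene of the list fitted below 0: at 3.53, 5.23 and 4.38 FPKM in WT and 1.37, 1.70 and 1.76 in LKO, no LKO library reached the lowest WT library (log2 difference -1.03 ± 0.22 SE, limma adjusted p = 0.201). Slc16a1, a monocarboxylate transporter that carries ketone bodies, was at 4.82 ± 2.91 and 10.7 ± 6.20 FPKM, and the ketone body exporter gene Slc16a6 at 0.923 ± 0.376 and 2.01 ± 1.72.

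Of 11 other mitochondrial fatty acid genes 10 were fitted above 0 (median 0.46, and 0.20 without WT replicate 1). In 3 of them, 27.3%, every LKO library was above every WT library, against 8.0% of all genes. Acot2, a mitochondrial acyl-CoA thioesterase, was at 1.06, 3.24 and 1.90 FPKM in WT and at 8.53, 15.5 and 10.4 FPKM in LKO (log2 difference 2.05 ± 0.34 SE, limma adjusted p = 0.135). Pdk4, a kinase that turns pyruvate dehydrogenase off, was at 0.192, 0.599 and 0.419 FPKM in WT and at 11.8, 3.24 and 1.66 in LKO, highest in the same library as Slc22a5 (log2 difference 1.91 ± 0.53 SE, limma adjusted p = 0.323). Hsd17b10, which acts on branched short chains, was at 109.0 ± 33.9 and 192.6 ± 61.4 FPKM, and Acsf2, an acyl-CoA synthetase, at 19.9 ± 10.2 and 30.1 ± 8.90.

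Among 19 PPAR-alpha targets outside the route, 16 were fitted above 0 with a median of 0.52. Leaving out WT replicate 1 gave a median of 0.24, and leaving out WT replicate 2 gave 0.86. At an unadjusted p under 0.05, 7 were higher and 1 lower, against 2 and 0 of the 33 members and 4.28% of all genes higher. Plin2, a lipid droplet coat protein, averaged 56.9 ± 45.6 FPKM in WT against 227.4 ± 71.6 FPKM in LKO, with a limma adjusted p of 0.306. The fatty acid hydroxylase gene Cyp4a14 averaged 18.7 ± 28.4 and 144.9 ± 77.3 FPKM, with a limma adjusted p of 0.319. Cyp4a32 went the other way, at 28.2 ± 6.39 and 13.9 ± 0.797 FPKM, and as one of several close paralogs its level is uncertain. Fgf21, a fasting hormone of the liver, was at 1.99 ± 1.43 and 0.918 ± 0.586 FPKM.

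Of 17 transcriptional regulators of fatty acid oxidation, 12 were fitted above 0 with a median of 0.13, which turned to -0.018 without WT replicate 2 and was 0.002 without LKO replicate 1. Ppara, the receptor itself, was at 6.41, 9.60 and 7.99 FPKM in WT and at 10.6, 9.89 and 24.9 FPKM in LKO. The groups did not overlap, by a small margin in LKO replicate 2, and the mean in LKO rested on replicate 3 (log2 difference 0.74 ± 0.38 SE, limma adjusted p = 0.628). Its coactivator gene Ppargc1a was at 1.25 ± 0.0321 and 1.89 ± 0.692 FPKM. Esrra, an orphan receptor that acts on mitochondrial genes, was lower in every LKO library, at 21.2 ± 3.90 and 10.8 ± 2.94 FPKM (log2 difference -0.93 ± 0.30 SE, limma adjusted p = 0.389). Tfeb, a regulator of lysosome genes, was at 3.19 ± 1.13 and 2.01 ± 0.0835 FPKM, and the coactivator gene Ppargc1b at 1.64 ± 0.660 and 0.748 ± 1.06.

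The tricarboxylic acid cycle and nuclear respiratory chain lists shared the members' low WT replicate 1, and were not alone in this. It was the lowest WT library for 84.2% of the PPAR-alpha targets, 81.25% of the branched-chain genes and 72.7% of the other mitochondrial fatty acid genes. For the other ketone body, regulator, immediate early and mitochondrial genome lists this held for 15.4% to 50% of the genes. In LKO replicate 3 the cycle genes resembled the members, and the respiratory chain genes did not. That replicate was the highest LKO library for 55.6% of the cycle genes, 63.6% of the members and 81.25% of the branched-chain genes. WT replicate 1 was the lowest WT library for 18 of 18 genes of the tricarboxylic acid cycle and for 22 of 23 nuclear genes of the respiratory chain. The median deviations of the cycle genes were -0.54, 0.45 and 0.10 in WT and -0.28, 0.56 and 0.60 in LKO, with a median log2 difference of 0.34. Leaving out WT replicate 1 took that median to 0.04, leaving out LKO replicates 2 or 3 to 0.17 or 0.12, and leaving out WT replicate 2 or LKO replicate 1 to 0.54 or 0.60. Idh2, the mitochondrial NADP-dependent isocitrate dehydrogenase, was at 25.3 ± 13.4 FPKM in WT against 41.2 ± 22.1 FPKM in LKO, Fh1, fumarase, at 74.5 ± 12.9 and 110.1 ± 37.1, and Dlst, of the oxoglutarate dehydrogenase complex, at 11.6 ± 1.70 and 14.7 ± 2.70. For the respiratory chain the library medians were -0.55, 0.43 and 0.26 in WT and -0.05, 0.43 and 0.25 in LKO. There LKO replicate 3 lay below WT replicates 2 and 3, exceeded WT replicate 3 in 47.8% of the genes (93.9% of the members) and was the highest LKO library in 21.7% (63.6% of the members). The median log2 difference was 0.23, turned to -0.10 without WT replicate 1 and was 0.03 without LKO replicate 2 and 0.44 without WT replicate 2. Its genes included the complex I subunit genes Ndufs1 at 7.26 ± 1.198 and 10.4 ± 3.50 FPKM and Ndufv1 at 42.1 ± 15.3 and 61.9 ± 20.3 FPKM. In neither list were groups free of overlap for any gene.

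The 13 protein genes of the mitochondrial genome ran opposite, at 0.07, -0.60 and 0.42 in WT and 1.06, -0.81 and -1.85 in LKO (median log2 difference -0.51). That median turned to 0.12 without LKO replicate 3 and was -1.32 without LKO replicate 1. The complex I subunit gene mt-Nd2 was at 20005, 10249 and 18610 FPKM in WT and at 29922, 8191 and 4207 FPKM in LKO. For mt-Nd5, of the same complex, the means were 5808 ± 1982 FPKM in WT and 4842 ± 4389 in LKO, and for mt-Atp8, of ATP synthase, 35.6 ± 15.4 and 31.9 ± 35.9. Branched-chain amino acid oxidation, which also uses Acadsb and Acat1, had a median of 0.12 over 16 genes, 10 of them above 0. The median turned to -0.08 without LKO replicate 3 and to -0.04 without WT replicate 1, and was 0.48 without LKO replicate 1. Bcat2, the mitochondrial aminotransferase that opens that route, averaged 8.75 ± 3.18 FPKM in WT and 3.71 ± 1.86 FPKM in LKO without overlap between groups (adjusted p of 0.442, limma), and Acad8, for isobutyryl-CoA, was at 8.59 ± 2.87 and 11.5 ± 2.24.

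**Figure D4:**
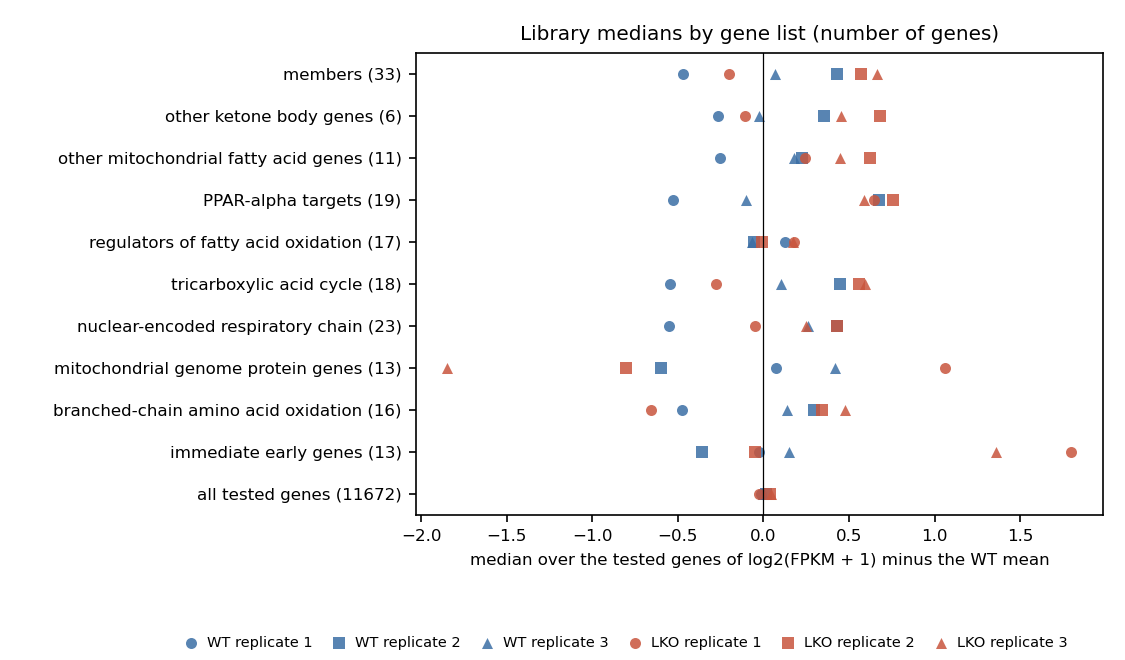
Median over the tested genes of each list of log2(FPKM + 1) minus the WT mean, 1 point per library, with WT in blue, LKO in red and the marker giving the replicate number. The members, the tricarboxylic acid cycle and the nuclear respiratory chain have their lowest point in WT replicate 1. So do the other ketone body genes, the other mitochondrial fatty acid genes and the PPAR-alpha targets. Branched-chain genes have their lowest point in LKO replicate 1, the mitochondrial genome list has its lowest in LKO replicate 3 (-1.85), and all tested genes stay near 0.

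Immediate early genes, which respond within minutes to stimuli and to tissue handling, had a median of 1.13 over 13 tested genes, and of 0.74 without LKO replicate 1. Their library medians were -0.03, -0.36 and 0.15 in WT and 1.80, -0.05 and 1.36 in LKO, so LKO replicates 1 and 3 were high and LKO replicate 2 fell among the WT values. Btg2 averaged 4.25 ± 1.57 and 47.6 ± 27.9 FPKM (limma adjusted p = 0.135), Atf3 at 0.378 ± 0.119 and 5.08 ± 3.93, and Junb at 38.7 ± 5.58 and 91.7 ± 38.7. Slc22a5 and Pdk4 shared their highest library, LKO replicate 1, with this list, and its part in their values was not tested. Neutrophil markers summed to 3.82, 0.803 and 3.39 FPKM in WT and to 16.2, 11.4 and 3.27 FPKM in LKO. Kupffer cell and macrophage markers summed to 58.5, 47.1 and 21.6 FPKM in WT and to 66.4, 23.0 and 54.3 in LKO. Endothelial markers summed to 32, 22.6 and 24.8 FPKM in WT and to 34.1, 13.5 and 14.8 FPKM in LKO. The sum was highest in the libraries numbered 1 and lowest in LKO replicates 2 and 3, and Clec4g was its largest part. Single markers did not all follow it. Oit3 was at 3.05 FPKM in WT replicate 1 and 3.59 FPKM in LKO replicate 3, and Kdr and Lyve1 also departed from that order. The part of these cells in the members' values was not tested.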

How the data were processed

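RNA from liver was sequenced in 3 WT and 3 LKO libraries, and the titles gave each library's group and number. The authors deposited FPKM per gene and library. Tools named per the submitters' processing notes, with no role, were DESeq2 1.20.0, featureCounts 1.5.0-p3, HISAT2 2.0.5 and CASAVA, with build mm10; annotation and strand setting: not given in the sources used here. FPKM times GENCODE vM21 exon length (54495 of 54532 identifiers) gave whole reads, within 0.05 read, for 95.8% to 96.3% of values above 0.

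Limma-trend (limma 3.58.1, R 4.3.3, robust empirical Bayes) was fitted to log2(FPKM + 1) of all genes averaging 0.5 FPKM or more, with genotype as the only term and Benjamini-Hochberg adjustment over 11672 genes. Log2 differences on this scale understate changes of low genes. The fit was tested on simulated data. It called 15% of the genes given a log2 change of 1, 53.6% of those given 2 and 93% of those given 4. The members and lists were chosen with earlier results of these data known. All members were named; other genes were Arid2, Ppara, Ppargc1a, Fgf21, Pdk4 and up to 3 per list with the smallest p and a mean of at least 1 FPKM. Some genes that the rule names are not reported here. Per-library values of Hadhb, Etfb, Acads and Acadvl were added after they were seen. Alternatives were a pseudocount of 0.1, other filters, a replicate block, leaving out libraries, other scalings, array quality weights and voom on recovered reads. Figures were drawn with Python 3.11.15 and matplotlib 3.10.9.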

Additional observations from a re-analysis of the deposited data

How the results depend on the processing

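Cpt1b, with 0 to 6 reads per library, did not enter the test. Of 495 member values under 15 alternatives, 460 kept their direction and side of the threshold, 33 turned sign in 18 members, and 2 passed: with array quality weights, whose estimate did not fully converge, Acsl4 (1.44, limma adjusted p = 0.0185) and Slc22a5 (1.36, limma adjusted p = 0.0379), when 10.2% of all genes were called (621 higher and 574 lower). Over all alternatives the limma adjusted p was 0.0185 to 1 for Acsl4 and 0.0379 to 0.876 for Slc22a5. Of 435 values of other named genes, 9 passed, all with those weights, and 1 turned sign (mt-Nd2). The replicate block and the other filters leave each log2 difference unchanged, so no sign could turn in those fits. Over all genes, 1 was higher and 4 lower; no filter gave 0 and 1, quantile normalization 0 higher, and the fit without both libraries numbered 1 gave 1 lower. With the replicate number as a block, 0 genes were called in either direction (limma; 1478 at an unadjusted p under 0.05, 4 of them members). Same-numbered libraries correlated at 0.494, 0.303 and -0.023 in their deviations, so the numbers were not taken to pair samples. Leaving out 1 library gave 0 to 13 genes higher and 0 to 4 lower, 4 to 18 members without overlap upward and 0 to 3 downward. Without both libraries numbered 1 these were 19 and 2 members, Acad10 was at 0.14, Acsm5 at 0.016, Etfa at -0.00435 and Eci1 at -0.00143. Quantile normalization turned Acadsb (-0.062) and Echs1 (-0.045), and array weights Mlycd (0.061). The median of immediate early genes was 0.27 with array weights. Ranges over leaving out 1 library were, for medians, -0.32 to 0.61 (activation), 0.20 to 0.57 (other mitochondrial fatty acid genes) and -0.018 to 0.18 (regulators). For genes whose sign turned they were -0.19 to 0.12 (Arid2), -0.087 to 1.36 (Acads), -0.13 to 0.37 (Acadsb), -0.60 to 0.14 (Acad10), -0.0056 to 1.14 (Acad11), -0.13 to 0.72 (Acad9), -0.038 to 1.013 (Acaa2), -0.14 to 0.22 (Etfa), -0.83 to 0.037 (Etfb), -0.016 to 0.68 (Decr1), -0.034 to 0.58 (Eci1), -0.37 to 0.78 (Echs1), -0.060 to 0.58 (Bdh1), -0.51 to 0.13 (Acsl3), -0.0041 to 0.81 (Acsl5), -0.37 to 0.11 (Acsm1), -0.37 to 1.09 (Acsm3), -0.56 to 0.028 (Acsm5), -0.24 to 0.10 (Mlycd) and -1.41 to 0.0027 (mt-Nd2). The cause was not tested.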
